A study of Mus musculus with 8 samples.

Results

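The 10 genes described here encode C-type lectin receptors of myeloid cells: Mgl2, Clec10a, Clec4a1, Clec4a2, Clec4a3, Clec4d, Clec4e, Clec4n, Clec7a and Clec12a. They were taken as a named list out of 55357 genes counted in mouse bone marrow-derived macrophages (BMDMs), and the list was chosen with the results of the comparison between So(d18:1) and control already known. Differences of these 10 genes between the groups are therefore given as a description: which of them passed a threshold in the fit over all genes is stated, but is not evidence about the list. BMDMs were grown in M-CSF from marrow of wild-type C57BL/6J mice. So(d18:1), or sphingosine, is the long-chain base from which ceramides are built. It was given at 2 μM for 6 h to 4 cultures, and 4 control cultures received its solvent, methanol, for the same 6 h. The sample labels name no inflammatory stimulus in either group, whereas the paper's text places the cells under inflammatory stimulation. The paper's figure legend calls the 4 samples of a group biologically independent, but no source says that they came from separate animals. P-values therefore measure the spread between these libraries, which may not be that between animals.

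C-type lectin receptors bind sugars or lipids of microbes and of damaged or dying cells through an extracellular lectin-like domain. Activating members signal through the kinase Syk and the adaptor CARD9, either by an ITAM-like motif of their own, as Dectin-1 (Clec7a) does, or through the ITAM-bearing adaptor FcRγ (Fcer1g), as Dectin-2 (Clec4n), Mincle (Clec4e) and MCL (Clec4d) do. Inhibitory members such as DCIR (Clec4a2) and MICL (Clec12a) carry an ITIM that recruits the phosphatases SHP-1 and SHP-2. Clec4a1 and Clec4a3 are relatives of DCIR that lack an ITIM. Clec10a (CD301a) and Mgl2 (CD301b) are endocytic receptors for galactose and N-acetylgalactosamine, and are widely used as markers of macrophages activated by IL-4.

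The genes lie in 3 places of the mm10 mouse genome. Mgl2 (chr11:70130329-70137550) and Clec10a (chr11:70156197-70170834) are neighbours on the plus strand of chromosome 11. Clec4a1, Clec4a3, Clec4a2, Clec4n, Clec4d and Clec4e lie in that order at chr6:122921848-123289870, with Clec4e alone on the minus strand. Clec12a and Clec7a lie further along chromosome 6, at chr6:129342691-129472779, with Clec7a on the minus strand. Clec7a is listed by GENCODE as a polymorphic pseudogene and the other 9 genes as protein-coding. No exon of the 10 genes overlaps an exon of another gene. Some sequence is shared between close relatives, and reads from it can be split or dropped by the counting: 13.1% of the 50-base words of Mgl2 transcripts, 9.02% of those of Clec10a and 6.83% of those of Clec4a2 occur in another gene. For Mgl2 and Clec10a the gene that shares most is the other of the pair, and for Clec4a2 it is Clec4a4. For the remaining 7 genes the share was at most 0.686%.

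RefSeq windows of 250 bases before the transcription start were found for 8 of the 10 genes on GRCm38.p6. Of these 8, the windows of the 2 genes with the lowest and the 2 with the highest So(d18:1) to control ratios are shown 5′ to 3′ on the gene's own strand, to set the sequence beside the opposite directions of the values. They are Mgl2 (chr11:70130107-70130356, plus strand) and Clec12a (chr6:129349994-129350243, plus strand), which were lower in So(d18:1) libraries, and Clec4d (chr6:123261857-123262106, plus strand) and Clec4e (chr6:123289872-123290121, minus strand), which were higher. Capitals mark matches, on either strand, to the letters searched for.
Mgl2: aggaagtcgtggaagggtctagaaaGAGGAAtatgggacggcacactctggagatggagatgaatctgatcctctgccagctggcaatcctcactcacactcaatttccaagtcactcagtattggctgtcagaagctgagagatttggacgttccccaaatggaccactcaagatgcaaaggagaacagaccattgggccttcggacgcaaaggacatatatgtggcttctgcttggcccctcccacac
Clec12a: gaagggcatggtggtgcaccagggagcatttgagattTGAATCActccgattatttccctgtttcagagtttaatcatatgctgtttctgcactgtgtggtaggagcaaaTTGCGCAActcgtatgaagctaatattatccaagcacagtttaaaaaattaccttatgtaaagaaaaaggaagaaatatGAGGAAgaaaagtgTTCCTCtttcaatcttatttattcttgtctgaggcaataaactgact
Clec4d: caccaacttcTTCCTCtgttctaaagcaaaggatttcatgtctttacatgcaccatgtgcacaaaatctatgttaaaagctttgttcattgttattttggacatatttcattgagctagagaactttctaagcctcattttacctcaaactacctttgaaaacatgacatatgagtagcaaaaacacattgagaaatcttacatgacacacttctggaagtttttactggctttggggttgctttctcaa
Clec4e: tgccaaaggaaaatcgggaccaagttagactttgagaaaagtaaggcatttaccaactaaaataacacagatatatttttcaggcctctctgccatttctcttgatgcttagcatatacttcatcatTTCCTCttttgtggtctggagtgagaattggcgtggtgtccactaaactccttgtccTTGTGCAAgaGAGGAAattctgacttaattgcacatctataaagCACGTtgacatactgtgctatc

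Letters for 7 kinds of factor were searched on both strands. GAGGAA, the core bound by the myeloid ETS factor PU.1, was found in 7 of the 8 genes' windows and in 23.4% of 32536 such windows of all genes. In Mgl2 and Clec4d it was the single match, at positions -225 to -220 and -240 to -235, with -1 the last base before the start. Clec4e held it at 2 places, with letters of C/EBP factors (TTGCNNAA, 9.57% of all windows) at -66 to -59 and letters of hypoxia-inducible factors (ACGTG, 16.7% of all windows) at -22 to -18. Clec12a also held GAGGAA at 2 places, with a C/EBP match at -140 to -133 and letters of AP-1 (TGANTCA, 6.73% of all windows) at -213 to -207. The letters of STAT6, TTCNNNNGAA, occur in 5.89% of all windows and were found in those of Clec4a1 and Clec7a. The letters of NF-kB (GGGNNNTNCC, 14.9% of all windows) and of nuclear receptors (AGGTCA, 14.0%) had no match in the 8 genes. The C/EBP letters were thus in one window of each direction, and the PU.1 letters in all 4 windows shown. A match is a string of letters and was not measured as a bound site.

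Between 17748397 and 26088609 reads per library were counted on genes, and TMM factors lay between 0.989 and 1.01. Levels are counts scaled to a common library total (CPM) after TMM scaling. Macrophage markers were abundant in every library: Csf1r, the M-CSF receptor, averaged 6234 CPM over the control libraries and 5986 CPM over the others, and the 9 macrophage markers summed to between 26715.1 and 33315.4 CPM. Of 14514 genes with enough counts to test, 8.94% passed an adjusted p of 0.05 in edgeR's quasi-likelihood test, 3.87% higher and 5.07% lower in So(d18:1). By the study's own rule, which asks for a 1.5-fold difference and a p below 0.05 before adjustment, 3.89% passed. In 15.0% of the tested genes the 4 libraries of one group lay wholly above the 4 of the other.

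All 10 receptor genes had enough counts to be tested. Of these, 9 passed the adjusted threshold, where 8.94% of all genes did: 2 higher (Clec4d and Clec4e) and 7 lower (Mgl2, Clec10a, Clec12a, Clec4a1, Clec4a2, Clec4a3 and Clec7a). Clec4n did not pass. Groups did not overlap in 7 of the 10 genes, against 15.0% of all genes, and 2, Mgl2 and Clec10a, passed the study's own rule, against 3.89%. Since the list was selected on this comparison, nothing is read from these shares. The median log2 fold change was -0.20 over the 10 genes and 0.00361 over all genes tested. In RNA from whole cultures, fewer cells of a type and less RNA per cell cannot be told apart.

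How strongly control BMDMs expressed each receptor gene was compared per kilobase of exon, the only scale on which levels of different genes can be set side by side. Clec4d, the MCL gene, was the highest of the 10 at 318.7 ± 22.8 CPM per kilobase (mean ± SD, n = 4). Clec4a1 followed at 235.2 ± 9.08 and Clec4a3 at 139.3 ± 10.4 CPM per kilobase. These 3 genes of the Dectin-2 cluster held most of the family's transcripts per length. Clec7a stood at 84.6 ± 2.77, Clec4a2 at 54.0 ± 2.53 and Clec12a at 43.5 ± 2.84 CPM per kilobase. Clec4n, at 39.7 ± 6.69 CPM per kilobase, could not be separated from Clec12a on this length, as their ranges over the 4 libraries overlapped. The lowest 3 were Clec10a at 29.7 ± 2.29, Clec4e at 18.3 ± 0.872 and Mgl2 at 5.32 ± 1.34 CPM per kilobase. The activating receptors were thus spread over the order, at ranks 1 (Clec4d), 4 (Clec7a), 7 (Clec4n) and 9 (Clec4e). The IL-4-associated Clec10a and Mgl2 stood at ranks 8 and 10. Apart from Clec12a and Clec4n, every pair of neighbours in the order had ranges that did not overlap.

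**Figure D1:**
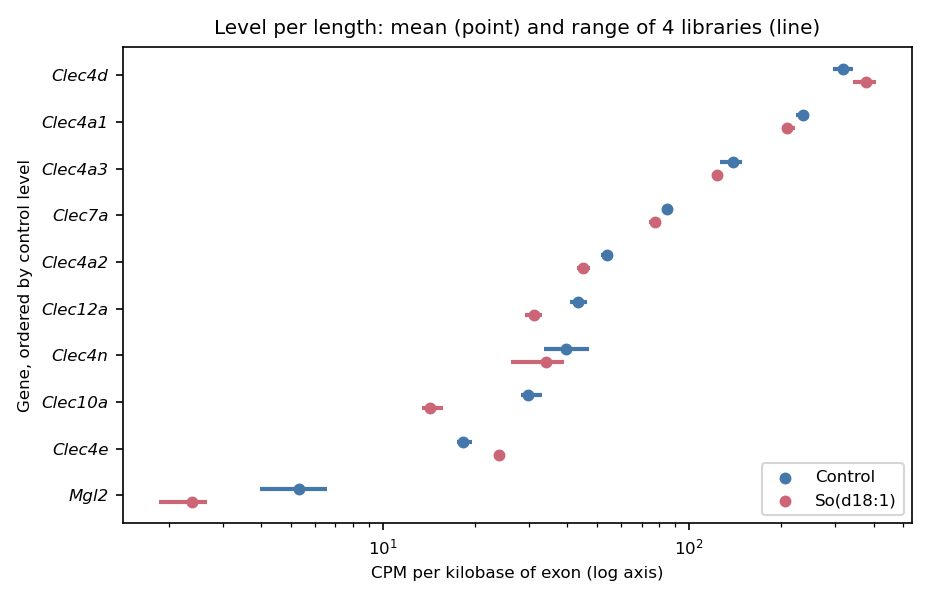
Level of each receptor gene in CPM per kilobase of exon on a log axis, with genes ordered by the control level; points are means and lines the range of the 4 control (blue) or 4 So(d18:1) (red) libraries. Clec4d leads in both groups, Mgl2 is last in both, and Clec10a (29.7 in control, 14.3 in So(d18:1)) and Clec4e (18.3 and 24.0) change places.

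In So(d18:1) libraries Clec4d was again the highest, at 378.1 ± 27.3 CPM per kilobase, and Mgl2 the lowest, at 2.39 ± 0.37. Clec10a, at 14.3 ± 1.07 CPM per kilobase, stood below Clec4e, at 24.0 ± 0.761, the reverse of their order in control. Clec4n (34.0 ± 5.49 CPM per kilobase) and Clec12a (31.2 ± 1.6 CPM per kilobase) exchanged means, but their ranges overlapped in this group too. The other 6 genes kept their rank. With the longest transcript of each gene as the length in place of all its exons, 8 of the 10 control ranks were kept. Those that changed were the ranks of Clec12a and Clec4a2, as Clec12a has 5528 exon bases but a longest transcript of 3233. On that length Clec12a lay above Clec4n in every library of both groups. The overlap and exchange of Clec12a and Clec4n therefore hold only for the length of all exons.

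The galactose-type lectins showed the lowest ratios of So(d18:1) to control. Clec10a counted 85.2, 81.8, 95.8 and 81.8 CPM in control libraries 1 to 4 and 45.6, 39.3, 39.0 and 42.1 CPM in So(d18:1) libraries 1 to 4. Every control library was above every So(d18:1) library, and the spread within each group was small beside the gap between them. The log2 fold change was -1.05 ± 0.0616 (SE), or 0.481 of the control level. Mgl2, its neighbour on the chromosome, was the least abundant gene of the list, with 190, 209, 326 and 323 reads in the control libraries and 90, 86, 105 and 144 reads in the So(d18:1) libraries. In CPM these were 9.14, 8.32, 13.7 and 13.3 against 5.05, 3.89, 5.47 and 5.59. The groups did not overlap here either, but control libraries 3 and 4 stood well above control libraries 1 and 2. The same pairs appeared over well-counted genes, by the chi-square per gene of the difference between 2 libraries. It was 2.772 for control 1 and 2, 3.84 for control 3 and 4, and 5.763 to 12.33 across these pairs. Pairs of So(d18:1) libraries gave 2.829 to 7.817. The source of this split was not tested, and the 4 control libraries may not be fully independent. The log2 fold change of Mgl2 was -1.16 ± 0.174 (SE), or 0.449 of the control level, and it was -0.80 with control libraries 3 and 4 left out, an alternative chosen after seeing the data. Of all genes tested, 35 had at least the log2 fall of Mgl2 and 58 at least that of Clec10a, both counts including the genes themselves.

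**Figure D2:**
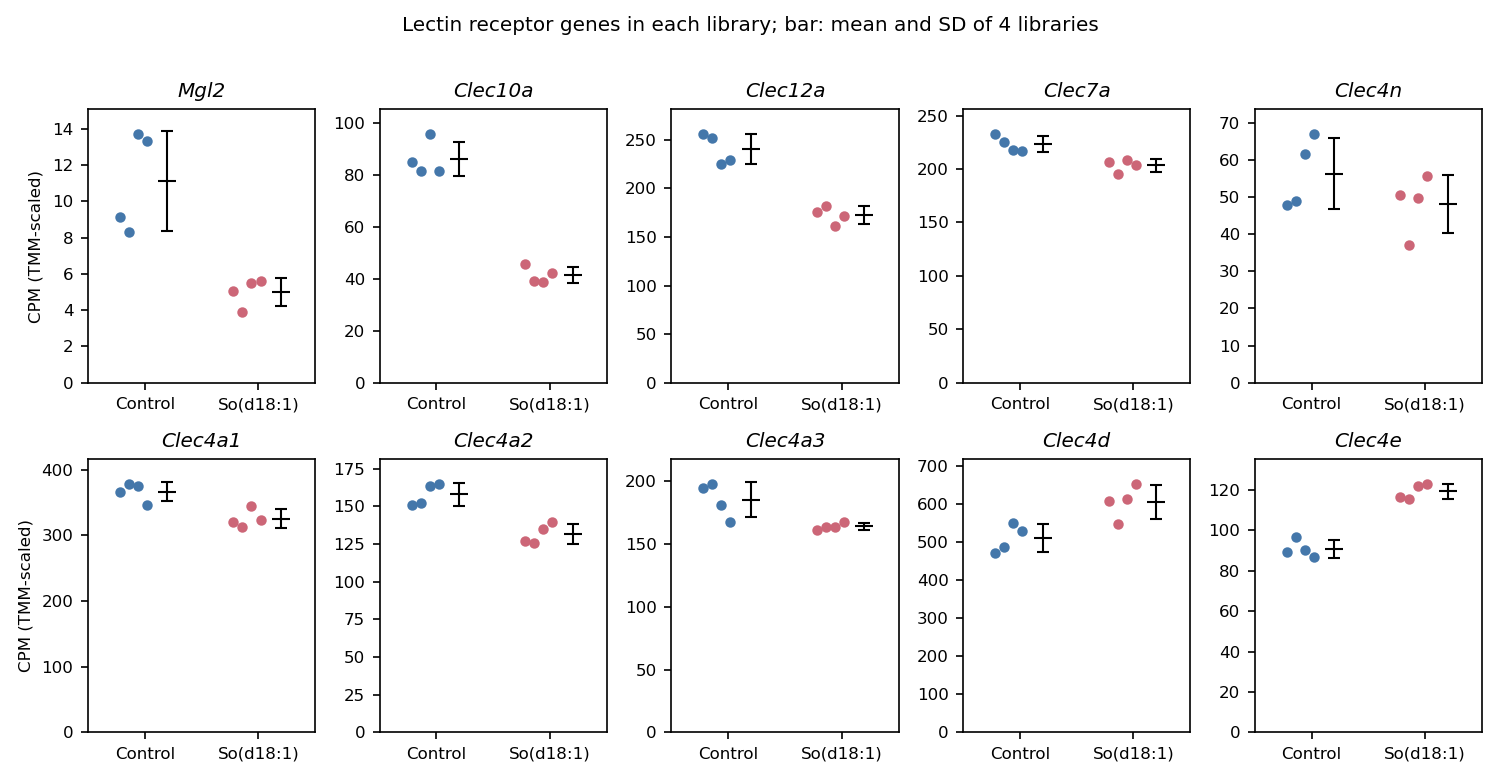
CPM of the 10 receptor genes, each on its own linear axis from 0, in 4 control (blue) and 4 So(d18:1) (red) libraries placed left to right by replicate number; black bars give the mean and SD. The groups are apart in all panels but Clec4n, Clec4a3 and Clec4d, and only Clec4d and Clec4e are higher in So(d18:1).

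Mincle and MCL form a receptor complex for mycobacterial cord factor, and MCL is known to support the surface expression of Mincle. They were the only genes of the list with higher values in So(d18:1) than in control. Clec4e, encoding Mincle, stood at 89.5, 97.0, 90.1 and 86.9 CPM in the control libraries and at 116.8, 115.5, 122.2 and 123.0 CPM in the So(d18:1) libraries. The lowest So(d18:1) library was above the highest control library. The log2 fold change was 0.39 ± 0.0462 (SE), 1.31 times the control level. Clec4d, encoding MCL, stood at 471.2, 487.6, 549.9 and 529.7 CPM in the control libraries and at 606.6, 546.5, 613.4 and 652.1 CPM in the So(d18:1) libraries. Its groups overlapped at a single point, as So(d18:1) library 2 lay just under control library 3. The log2 fold change of Clec4d was 0.25 ± 0.0565 (SE), 1.19 times control. Among all genes tested, 644 had at least the rise of Clec4e and 1371 at least that of Clec4d, so neither stood out by size.

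Dectin-2 and Dectin-1, the other activating receptors of the list, did not share this direction. Clec4n, encoding Dectin-2, a receptor for mannans of fungi, stood at 47.9, 48.9, 61.8 and 67.0 CPM in the control libraries and at 50.6, 37.2, 49.7 and 55.6 CPM in the So(d18:1) libraries. The groups overlapped broadly, with control libraries 3 and 4 high and So(d18:1) library 2 low. The log2 fold change of -0.23 had an SE of 0.162, the largest among the genes of this cluster in the list, and it came to -0.0055 with control libraries 3 and 4 left out. Clec7a, encoding the β-glucan receptor Dectin-1, stood at 232.5, 225.7, 217.9 and 216.9 CPM in the control libraries and at 206.4, 194.9, 208.1 and 204.1 CPM in the So(d18:1) libraries. The groups were apart by a narrow margin, and the log2 fold change was -0.13 ± 0.0421 (SE), the smallest of the 10. Clec7a no longer passed the threshold when any single library of the 8 was left out.

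The ITIM-bearing inhibitory receptors were lower in So(d18:1) libraries. Clec12a, encoding MICL, a receptor for uric acid crystals of dead cells, stood at 255.8, 252.4, 224.8 and 229.6 CPM in the control libraries and at 175.5, 182.2, 161.1 and 171.7 CPM in the So(d18:1) libraries. No So(d18:1) library came near the control range, and here control libraries 1 and 2 were the high pair. Its log2 fold change was -0.48 ± 0.0505 (SE), or 0.718 of control, and 739 of all genes tested had at least this fall. Clec4a2, encoding DCIR, stood at 150.8, 152.4, 163.9 and 164.9 CPM in the control libraries and at 127.3, 125.5, 135.0 and 139.4 CPM in the So(d18:1) libraries. The groups were apart, with a log2 fold change of -0.26 ± 0.0474 (SE), or 0.834 of control. Control libraries 3 and 4 were again the higher pair for Clec4a2.

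The relatives of DCIR without an ITIM differed least, apart from Clec7a. Clec4a1 stood at 365.6, 378.1, 375.2 and 346.8 CPM in the control libraries and at 320.6, 312.5, 345.3 and 322.8 CPM in the So(d18:1) libraries. The groups were set apart by the small gap between control library 4 and So(d18:1) library 3, and the log2 fold change was -0.17 ± 0.0443 (SE). Clec4a1 no longer passed the threshold without So(d18:1) library 1 or without So(d18:1) library 2. Clec4a3 stood at 193.9, 197.4, 180.9 and 167.0 CPM in the control libraries and at 160.9, 163.2, 163.1 and 167.6 CPM in the So(d18:1) libraries. Its So(d18:1) libraries were close to each other, but the highest of them reached control library 4, so the groups overlapped. The log2 fold change of Clec4a3 was also -0.17 ± 0.0492 (SE), and it failed the threshold when control library 1 or 2, or So(d18:1) library 1, 2 or 3, was left out.

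Because every receptor gene was counted in the same libraries, their proportions can be read within a library without any scaling between libraries. Summed over the 10 genes, the level per kilobase ran from 946.9 to 1001.6 in control and from 880.0 to 978.5 in So(d18:1) libraries, so the totals overlapped. The make-up of that total did not: Clec4d held 31.1% to 34.5% of it in control and 38.8% to 41.7% in So(d18:1) libraries. Mgl2 and Clec10a together held 3.33% to 3.95% in control and 1.68% to 1.94% in So(d18:1) libraries. The share of the 3 Clec4a genes was 42.2% to 45.9% in control and 38.9% to 41.6% in So(d18:1) libraries. These are shares of one sum, so a higher share of Clec4d lowers the others. As the genes were chosen on this comparison, the shares are a description only.

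Ratios of pairs of genes, again per kilobase, are given as a description only, since the genes were chosen on this comparison. A gene that was higher set over one that was lower parts the groups more readily than either gene alone. The ratio of Clec4d to Clec10a ran from 10.0 to 11.7 in control and from 24.1 to 28.6 in So(d18:1) libraries. Clec4d to Clec4n, MCL against Dectin-2, averaged 8.12 ± 0.849 in control and 11.2 ± 1.19 in So(d18:1) libraries (SD, n = 4). Its highest control value, 8.85, was under its lowest So(d18:1) value, 10.4, although the values of Clec4n and of Clec4d each overlapped between the groups. The ratio of Clec4e to Clec4n ran from 0.371 to 0.567 in control and from 0.633 to 0.887 in So(d18:1) libraries. Both ratios were thus higher in every So(d18:1) library than in every control library, while Clec4n stayed above Clec4e in all 8 libraries. Clec7a to Clec12a ran from 1.87 to 2.03 in control and from 2.24 to 2.71 in So(d18:1) libraries. The ratios of 2 other pairs overlapped between the groups: Clec10a to Mgl2 at 4.43 to 7.1 in control and 5.15 to 7.29 in So(d18:1) libraries, and Clec4d to Clec4e at 15.6 to 18.9 in control and 14.7 to 16.5 in So(d18:1) libraries.

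The neighbours of the receptor genes on the chromosome were taken from the annotation, within the clusters and 50 kb beyond them. Beside Mgl2 and Clec10a, 3 of 4 other genes were tested, and Asgr2, a subunit of the asialoglycoprotein receptor and itself a galactose lectin, fell. Asgr2 stood at 3.75, 2.99, 5.23 and 4.62 CPM in the control libraries and at 3.42, 1.36, 2.24 and 1.75 CPM in the So(d18:1) libraries, with a log2 fold change of -0.95 ± 0.246 (SE; adjusted p = 0.0244 in edgeR's test). Its groups overlapped through So(d18:1) library 1, and the call was lost without any of 5 libraries (control 3 or 4, So(d18:1) 2, 3 or 4), with an adjusted p of up to 0.0961. In the Dectin-2 cluster, 4 of 10 other genes were tested and Clec4b2, a lectin gene between Clec4a2 and Clec4n, fell by 0.56 on the log2 scale (SE 0.173, adjusted p = 0.0464 in edgeR's test), from 3.45 ± 0.433 to 2.35 ± 0.381 CPM (n = 4 each). That call was lost without any of 6 libraries (control 1, 3 or 4, So(d18:1) 1, 2 or 4), with an adjusted p of up to 0.157. Clec4a4 and Clec4b1 in the same cluster did not pass (log2 fold changes 0.12 ± 0.221 and -0.28 ± 0.194, SE), both at under 3 CPM. Around Clec12a and Clec7a, 5 of 9 other genes were tested and none passed; among them were Clec9a (log2 fold change -0.36 ± 0.268, SE) and Olr1 (log2 fold change -0.61 ± 0.193, SE; adjusted p = 0.0588 in edgeR's test). Olr1 passed without control library 2 (adjusted p = 0.0158) and without So(d18:1) library 3 (adjusted p = 0.0327). Along the Dectin-2 cluster the higher values were those of Clec4d and Clec4e at one end, as the plot of fold changes in chromosome order shows.

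**Figure D3:**
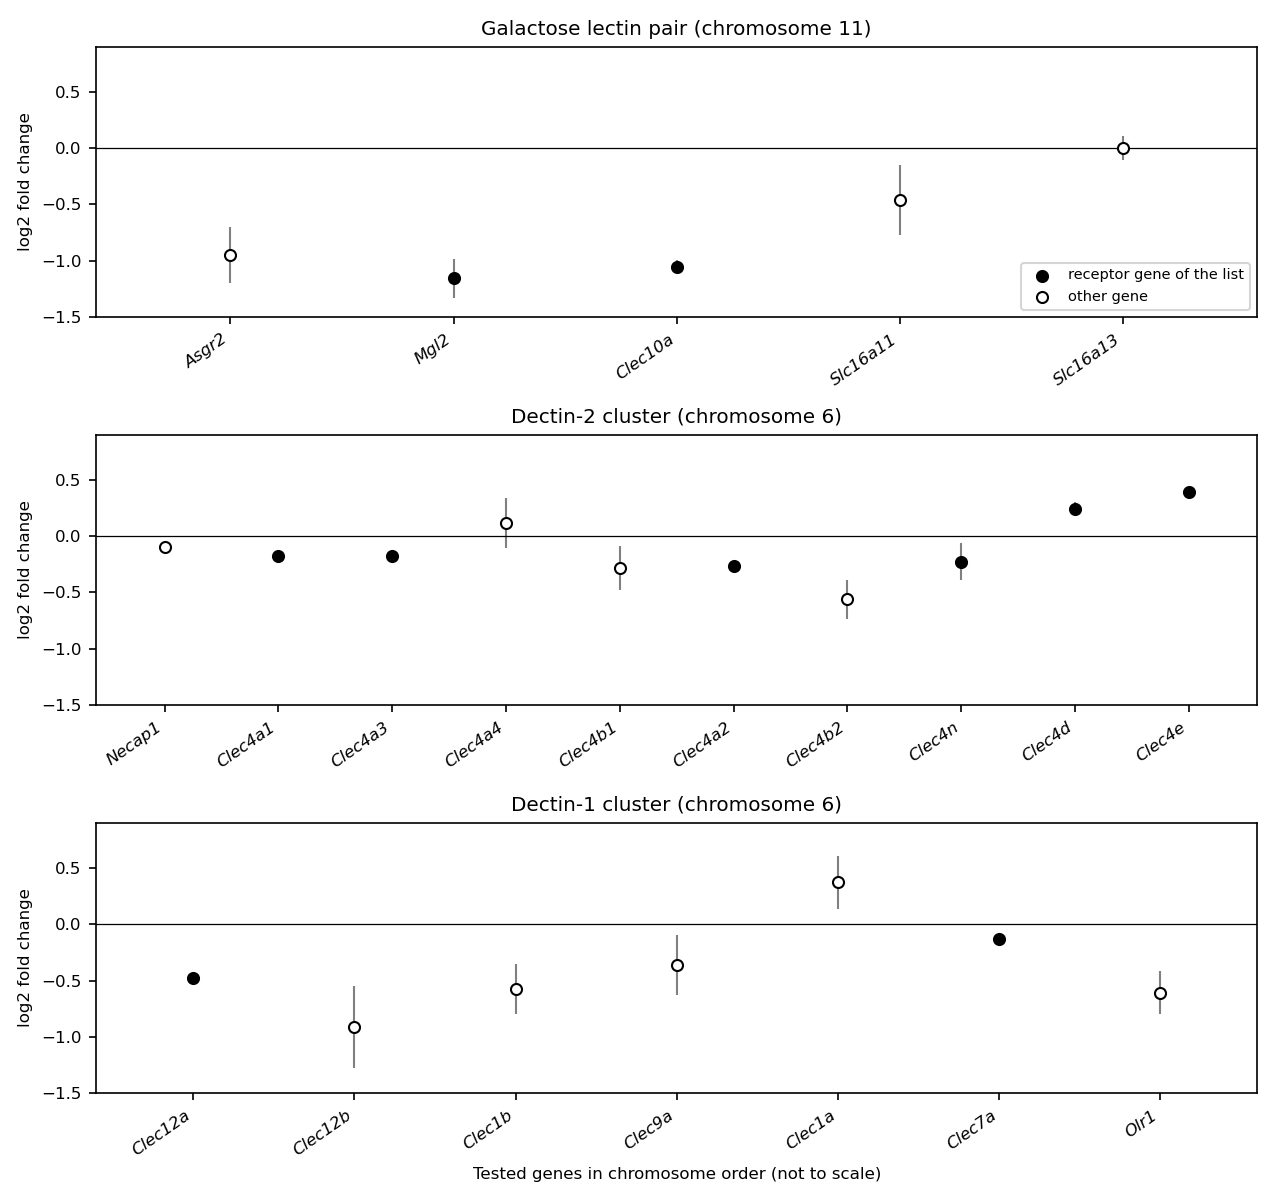
log2 fold change of So(d18:1) over control, with its SE as a bar, for the tested genes of the 3 clusters in chromosome order (not to scale); filled points are the 10 receptor genes and open points the other genes. Mgl2 and Clec10a near -1 lie beside Asgr2, and Clec4d (0.25) and Clec4e (0.39) lie together at the end of their cluster.

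A chosen list of other C-type lectin and lectin-like genes of the mouse, which does not cover the whole family, was compared. The list was chosen with earlier results of these data known. Of its 53 genes 28 were tested, and 7 fell (25.0%) while none rose at the adjusted threshold. Of all genes tested, 8.94% passed in either direction and 5.07% lower. The list's median log2 fold change was -0.274, beside 0.00361 over all genes tested, and 23 of the 28 lay below 0. Cd93, a receptor linked to the uptake of dying cells, fell by 0.15 on the log2 scale (SE 0.0394, adjusted p = 0.0164 in edgeR's test), from 851.9 ± 18.1 to 765.2 ± 10.6 CPM (n = 4 each). Ly75, the endocytic receptor DEC-205, fell by 0.60 (SE 0.17, adjusted p = 0.0306 in edgeR's test), Colec12, a scavenger receptor with a lectin domain, by 0.25 (SE 0.07, adjusted p = 0.0308) and Clec5a, a DAP12-coupled receptor, by 0.27 (SE 0.0791, adjusted p = 0.0347), all on the log2 scale. The seventh, Cd72, an ITIM-bearing receptor named here after its value was seen, fell by 0.38 on the log2 scale (SE 0.111, adjusted p = 0.0363 in edgeR's test). Mrc1, the mannose receptor, whose expression IL-4 also raises, did not pass and its groups overlapped (547.6 ± 38.1 and 467.3 ± 54.3 CPM, n = 4 each). It passed, lower in So(d18:1), without So(d18:1) library 2 (log2 fold change -0.30, adjusted p = 0.00479 in edgeR's test). The list's 7 calls depended on single libraries: the count was 0 without control library 4, 1 without control library 3 or So(d18:1) library 2, 2 without So(d18:1) library 4, 3 without So(d18:1) library 1, 4 without control library 1 or So(d18:1) library 3, and 2 with control libraries 3 and 4 left out.

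**Figure D4:**
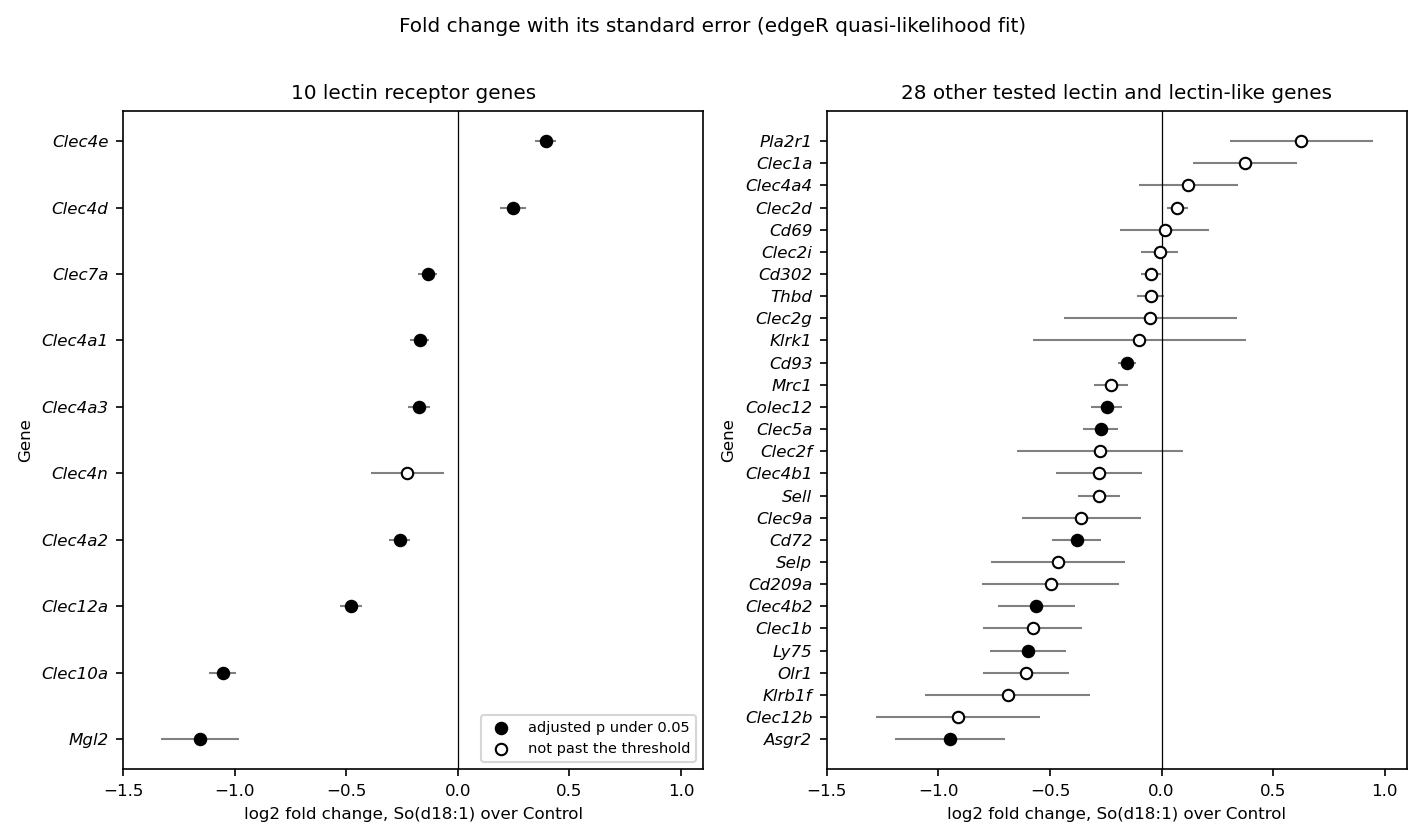
log2 fold change of So(d18:1) over control with its SE for the 10 receptor genes (left) and the 28 other tested lectin and lectin-like genes (right); filled points have an adjusted p under 0.05 in edgeR's test. On the left Clec4d and Clec4e lie above 0, and on the right 5 genes lie above 0, none of them past the threshold.

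The shared adaptor and kinase of the activating receptors did not pass the test. Fcer1g, the FcRγ chain that Dectin-2, Mincle and MCL need, averaged 402.7 ± 16.8 CPM without and 387.5 ± 17.1 CPM with So(d18:1) (log2 fold change -0.06 ± 0.045, SE; n = 4 each). Syk stood at 641.1 ± 19.0 and 672.5 ± 4.33 CPM, and Card9 at 64.1 ± 3.5 and 65.5 ± 4.2 CPM. For Syk every So(d18:1) library lay above every control library, a separation seen in 15.0% of all genes tested in either direction. None of the 3 passed, with adjusted p-values of 0.503, 0.317 and 0.812 in edgeR's test. Among 52 genes of signalling downstream of these receptors, 9 passed (17.3%, beside 8.94% of all genes), 4 higher and 5 lower, with a median log2 fold change of -0.0203. Those that fell included Blnk, the adaptor that Syk phosphorylates, from 77.7 ± 1.82 to 56.0 ± 3.01 CPM (log2 fold change -0.47 ± 0.0497, SE; adjusted p = 2.01e-06), and Rasgrp3, an activator of Ras, from 12.9 ± 1.1 to 8.47 ± 0.755 CPM (log2 fold change -0.61 ± 0.1, SE; adjusted p = 0.000413). Vav2, a guanine nucleotide exchange factor, fell by 0.44 on the log2 scale (SE 0.0707, adjusted p = 0.000642) and Lyn, a Src-family kinase, by 0.19 (SE 0.0408, adjusted p = 0.00428). Irf1, an interferon-linked transcription factor, rose from 94.7 ± 7.35 to 112.0 ± 6.04 CPM (adjusted p = 0.00693). The calls of Blnk, Rasgrp3, Vav2, Lyn and Irf1 held when any 1 library was left out. That of Irf1 was lost with control libraries 3 and 4 left out together (adjusted p = 0.0982). The remaining calls were named after their values were seen and not followed through fits that left out libraries. Plcg2, Nfkb2 and Nfatc2 rose by 0.1907, 0.1482 and 0.1674 on the log2 scale (adjusted p = 0.00956, 0.0366 and 0.0455, edgeR). Fgr fell by 0.3221 (adjusted p = 0.023, edgeR).

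Of 20 inhibitors of this signalling, 3 fell (15.0%) and none rose, beside 8.94% of all genes in either direction and 5.07% lower, with a median log2 fold change of -0.0143. Ubash3b, a phosphatase that acts on Syk, fell from 30.9 ± 2.63 to 23.8 ± 0.803 CPM (log2 fold change -0.37 ± 0.0689, SE; adjusted p = 0.00121, edgeR). Dok2, an adaptor that restrains Ras, fell from 43.0 ± 1.8 to 35.8 ± 1.62 CPM (adjusted p = 0.00452), a call that missed the threshold with control libraries 3 and 4 left out (adjusted p = 0.0566). Lilrb4a, an ITIM-bearing receptor with a close copy, Lilrb4b, in the mouse, fell by 0.20 on the log2 scale (SE 0.0588, adjusted p = 0.0457), a call lost without any of 6 libraries (each control library and So(d18:1) 2 or 4), with an adjusted p of up to 0.103. The phosphatases that ITIMs recruit did not pass: Ptpn6, encoding SHP-1, stood at 222.1 ± 10.2 and 220.4 ± 4.87 CPM, and Inpp5d, encoding SHIP-1, at 539.1 ± 16.3 and 494.4 ± 20.6 CPM (adjusted p = 0.915 and 0.0772). Every So(d18:1) library of Inpp5d lay below every control library.

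**Figure D5:**
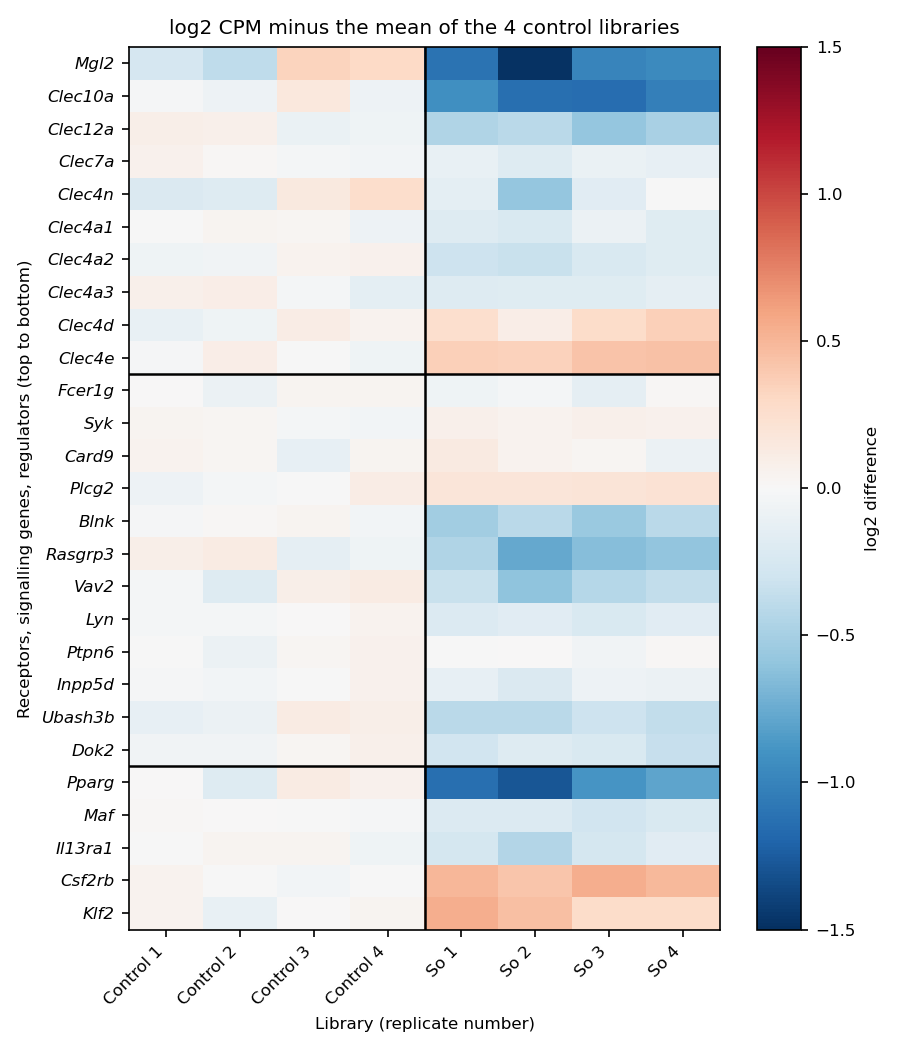
log2 CPM of each library minus the mean of the 4 control libraries, blue for lower and red for higher, for the 10 receptor genes (top), 12 signalling genes and inhibitors (middle) and 5 regulators (bottom). Mgl2, Clec10a and Pparg are the deepest blue rows across all 4 So(d18:1) libraries, while Fcer1g, Card9 and Ptpn6 stay pale.

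Genes that Dectin-1, Dectin-2 and Mincle are known to induce were compared as a list. Of 28 such genes 17 had enough counts, 2 fell (11.8%) and none rose, with a median log2 fold change of -0.276. That share was close to the 8.94% of all genes tested that passed in either direction (5.07% lower). Ccl3, a chemokine for monocytes, fell from 23.1 ± 3.11 to 15.5 ± 1.16 CPM (log2 fold change -0.58 ± 0.0915, SE; adjusted p = 0.000277, edgeR), and Egr3, an early growth response factor, from 6.24 ± 0.686 to 4.49 ± 0.817 CPM (adjusted p = 0.0373). The call of Egr3 was lost without any of 5 libraries (control 1, 2 or 3, So(d18:1) 2 or 4), with an adjusted p of up to 0.129. Csf2, encoding GM-CSF, counted no read in any library, which with 3 counts as the floor over all 8 libraries allows up to 0.0168 CPM.

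Of 35 factors and receptors known to set the expression of myeloid lectins, 34 were tested, 3 rose and 4 fell (20.6%, beside 8.94% of all genes), with a median log2 fold change of -0.038. Pparg, a nuclear receptor for fatty acids that IL-4 raises in macrophages together with the CD301 genes, stood at 11.1, 9.71, 12.1 and 11.6 CPM in the control libraries and at 5.05, 4.57, 5.99 and 6.4 CPM in the So(d18:1) libraries. Its groups were far apart, and its log2 fold change of -1.01 ± 0.12 (SE; adjusted p = 9.82e-06, edgeR) lay next to that of Clec10a. Il13ra1, a chain of the receptor for IL-4 and IL-13, fell from 57.0 ± 2.03 to 46.8 ± 3.58 CPM (adjusted p = 0.00302), and Maf, a macrophage transcription factor, from 800.7 ± 7.91 to 681.6 ± 18.3 CPM (adjusted p = 0.00063). Csf2rb, the common chain of the receptors for GM-CSF, IL-3 and IL-5, which has a close copy in the mouse, rose from 764.8 ± 19.1 to 1072.6 ± 40.3 CPM (log2 fold change 0.49 ± 0.0422, SE; adjusted p = 1.41e-07). Klf2, a transcription factor of quiescent myeloid cells, rose from 21.8 ± 1.12 to 28.6 ± 2.68 CPM (adjusted p = 0.00157). The remaining 2 calls, named after their values were seen, were a fall of Nr1h3, encoding LXRα (log2 fold change -0.60 ± 0.137, SE; adjusted p = 0.0104), and a rise of Cebpd, a C/EBP factor (log2 fold change 0.24 ± 0.0651, SE; adjusted p = 0.025). The calls of Pparg, Il13ra1, Maf, Csf2rb and Klf2 held when any 1 library was left out. Other genes of the list tied to IL-4, named after their values were seen, did not pass (adjusted p at least 0.306, edgeR). Their log2 fold changes were 0.0065 for Il4ra, -0.0739 for Il2rg, -0.0466 for Jak1, 0.0795 for Tyk2, -0.059 for Stat6 and 0.1975 for Irf4.

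The receptor genes are also expressed by other myeloid cells that a marrow culture can hold, so markers of those cells are given beside them. The counts of calls stand beside 8.94% of all genes tested, 3.87% higher and 5.07% lower. Calls of markers were not followed through the fits that left out libraries. All 9 neutrophil markers were lower in So(d18:1) libraries and 5 passed, and their sum ran from 1687.6 to 2332.2 CPM over the control libraries and from 1329.6 to 1510.2 CPM over the So(d18:1) libraries. Control libraries 3 and 4 were the higher control pair for each of these 9, as for S100a9 at 437.1, 434.6, 589.2 and 521.9 CPM in control libraries 1 to 4. Ly6g, the marker that defines neutrophils, averaged 2.17 CPM without and 1.38 CPM with So(d18:1). All 8 monocyte markers were lower and 5 passed (F13a1, Ly6c2, Plac8, Fn1 and Chil3), though Ms4a4c hardly differed (log2 fold change -0.0174). Their sum ran from 3405.7 to 3632.5 CPM over the control libraries and from 2832.9 to 3018.4 CPM over the So(d18:1) libraries. Most of it was F13a1 and Ccr2 (1762.0 and 1275.8 CPM in control), and Ccr2 did not pass. Whether monocytes or the macrophages themselves held these transcripts was not measured. Neutrophil and monocyte markers thus moved in the direction of Mgl2, Clec10a and Clec12a and against that of Clec4d and Clec4e, and their part in the receptor values was not tested. Dendritic cells also express Mgl2 and Clec10a: of 12 dendritic cell markers 10 were tested and none passed, and their sum overlapped at 39.1 to 43.1 CPM without and 37.6 to 42.5 CPM with So(d18:1). Of the 10 tested, 3 were higher and 7 lower, with a median log2 fold change of -0.191. The sum rested mainly on Itgax and Kmo (15.9 and 13.4 CPM in control), with log2 fold changes of -0.4029 and 0.2034. Zbtb46, a transcription factor that defines conventional dendritic cells, had too few counts to test. It averaged 0.263 CPM without and 0.382 CPM with So(d18:1). None of the 5 mast cell and basophil markers reached the counts needed for a test, and the 5 B cell and 5 T and NK cell markers had 1 call each, Pax5 and Nkg7, both lower and both at under 3 CPM in every library. Of the 9 macrophage markers, Itgam rose, Cd68 and Mertk fell and the other 6 did not pass.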

How the data were processed

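Poly(A) RNA of 8 BMDM libraries (4 control, 4 So(d18:1)) was sequenced. Reads were trimmed by the authors (Trim Galore 0.6.7) and mapped to mm10 (HISAT2 2.2.1), and the deposited values are raw whole-number counts for each gene from featureCounts 2.0.1. A strand setting and the handling of multi-mapping reads are not given in the sources used here. Of 55357 identifiers, 52081 carried a symbol in GENCODE M21, and the others held 0.169% to 0.325% of the counts.

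The fit used edgeR 4.0.16 and limma 3.58.1 under R 4.3.3: filterByExpr, TMM scaling, and its robust quasi-likelihood F test, adjusted by Benjamini-Hochberg over the 14514 genes tested. The script was tested on simulated data. Each SE was obtained from the log2 fold change and the F statistic (absolute change over root F). Values are TMM-scaled CPM as mean ± SD, and levels between genes were divided by the union of GENCODE exons. Promoter windows, names and gene starts came from RefSeq on GRCm38.p6.

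The 10 genes, the other gene lists and the marker lists were chosen with earlier results of these data known. Of each list, the text names up to 5 called genes with the smallest p and always 11 others (Fcer1g, Syk, Card9, Ptpn6, Inpp5d, Mrc1, Clec5a, Clec4a4, Clec4b1, Clec9a and Olr1), with called or lectin neighbours. An exact permutation test of 4 against 4 libraries cannot give a two-sided p under 0.0286. Total counts of 17748397 to 26088609 per library set the precision together with the 4 libraries per group.

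TMM was replaced by DESeq2's size factors, by upper quartiles or by library size alone. The filter on low counts was dropped, or set to 10 counts in each library. A replicate block, limma-voom and the Wald test of DESeq2 1.42.0 were tried, and each library was left out in turn. Leaving out control libraries 3 and 4 together was added after seeing the data. Plots were made in Python 3.11.15 (matplotlib 3.10.9).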

Additional observations from a re-analysis of the deposited data

Results flagged for a closer look

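Of 112 groups of 4 libraries examined gene by gene, 1 held a library far from the other 3, where chance gives 5.6. In the control group, Card9 of replicate 3 lay at a log2 CPM of 5.88 while the other 3 libraries lay at 6.03 to 6.05, so that the gap took 0.869 of the group's range. Without that library the log2 fold change of Card9 was -0.0092, against 0.03 with it, and Card9 passed the threshold in neither. None of the 10 receptor genes held such a library in either group.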

How the results depend on the processing

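Over the 10 receptor genes and 17 alternatives, 151 of 170 single-gene results kept their direction and their side of the threshold, 18 lost the call and 1 gained it. Mgl2, Clec10a, Clec12a, Clec4a2, Clec4d and Clec4e kept the call in all 17. Clec7a lost it in all 8 fits that left out a library, with library size alone, with no filter on low counts and with limma-voom. Same-numbered libraries deviated together with correlations of -0.00351 to 0.1, and 3 of 8 libraries correlated best with their own number, so the numbers were not taken to pair the libraries. With the replicate number as a replicate block, 10 of the 10 receptor genes passed instead of 9, Clec4n being gained, and the list of induced genes had 4 calls instead of 2. Over all genes, 1784 passed with the block and 1298 without it, and the SE of Clec4n was 0.064 with it and 0.162 without. The labels do not say whether equal numbers mark pairs, so that structure between same-numbered libraries remains possible.

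Leaving out 1 library at a time, the genes called overall ranged from 815 to 1370, the called other lectins from 0 to 6 and the called induced genes from 1 to 3. With control libraries 3 and 4 left out, 865 genes, 9 receptor genes and 2 other lectins passed. By the study's own rule 1212 genes passed with no filter on low counts, where more genes were tested. Directions that turned were those of genes with log2 fold changes near 0: Card9 ranged from -0.0092 to 0.0703 with 1 library left out, with -0.0041 without So(d18:1) library 1, and was -0.0089 without control libraries 3 and 4. Ptpn6 ranged from -0.0389 to 0.0123, with 0.0008 without control library 3 and 0.0071 without So(d18:1) library 3, and was 0.0384 without control libraries 3 and 4. Clec4a4 ranged from -0.0075 to 0.2681. Among the genes named as not passing, Mrc1 passed in 4 of 17 alternatives (no filter, replicate block, DESeq2's Wald test, without So(d18:1) library 2), Olr1 in 5 (the same first 3, without control library 2 or So(d18:1) library 3) and Inpp5d in 2 (upper quartile scaling, DESeq2's Wald test), each lower in So(d18:1). Beyond the smaller number of libraries or the larger number of genes, the cause was not tested. The SE was largest for Mgl2 (0.174) and Clec4n (0.162) among the 10.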
